A study of Mus musculus with 10 samples.

Results

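Neuronal nicotinic acetylcholine receptors and the handling of acetylcholine were followed through 10 genes, taken by symbol from the RNA-seq table of 53974 genes. They are 5 alpha subunits (*Chrna3*, *Chrna4*, *Chrna5*, *Chrna6* and *Chrna7*), 3 beta subunits (*Chrnb2*, *Chrnb3* and *Chrnb4*), the esterase gene *Ache* and the choline transporter gene *Slc5a7*. In the ATAC-seq comparison of 16600 regions, the regions within 1000 bp of an end of these genes were taken, and there were 2, at *Ache* and at *Chrna7*. The RNA of 8 of the 10 genes was measured well enough to be tested, and the RNA of *Chrna5* and *Slc5a7* was below 1 TPM, the authors' length-scaled measure of transcript abundance, in all 6 libraries.

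Neuronal nicotinic receptors are ion channels of 5 subunits that open when acetylcholine binds. The binding sites lie between an alpha subunit and its neighbour, so most receptors need alpha and beta subunits together, whereas the product of *Chrna7* can form a channel by itself. In the retina acetylcholine is released by starburst amacrine cells, and retinal ganglion cells (RGCs) and some amacrine cells carry nicotinic receptors. The enzyme encoded by *Ache* splits acetylcholine at the synapse, and the transporter encoded by *Slc5a7* takes choline back into the cells that make acetylcholine.

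The libraries came from C57BL/6 mice aged 8–10 weeks with a floxed *Arid1a* gene, whose product belongs to SWI/SNF, a chromatin remodeler. WT mice (Arid1a fl/fl) received AAV2-GFP and cKO mice (Arid1a del/del) received AAV2-Cre in the vitreous body, optic nerve crush (ONC) followed 2 weeks later in both groups, and retinas were taken 3 days after ONC. The study asked how loss of *Arid1a* acts on gene expression and open chromatin in injured RGCs, and no library from uninjured retina was analysed here. Living retinal cells stained by an antibody to Thy1.2 were sorted from pooled retinas, which gave 3 WT and 3 cKO libraries for RNA-seq and 2 WT and 2 cKO libraries for ATAC-seq. The virus drove its gene from the CMV promoter, which is not restricted to RGCs, so Cre could act in any cell the virus entered. Per the methods, AAV2-GFP had a higher titer than AAV2-Cre. Titer, the gene carried by the virus and loss of *Arid1a* therefore cannot be told apart between the groups. The design calls the libraries of a group biological replicates, and p-values measure the spread between these pools alone.

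The RNA of the targeted gene was not lower in the cKO libraries. It was given per gene and not per exon, so loss of a part of the gene could not be seen. *Arid1a* was at 18.8, 11.7 and 14.1 TPM in the WT libraries and 18.8, 27.9 and 25.0 TPM in the cKO libraries, a log2 fold change of 0.66 (SE 0.28, adjusted p = 0.274, limma), so the libraries labelled cKO did not have less of this RNA (protein was not measured in these files), and WT and cKO name the label of a library throughout. Markers that define RGCs were absent or low, whereas some general neuronal markers were present. *Pou4f2* was listed at 0 in 5 of 6 libraries and at 0.143 TPM in cKO replicate 3, *Rbpms* lay between 1.82 and 6.43 TPM, and the summed TPM of 16 RGC markers was 99.7 to 135 in WT and 149 to 190 in cKO. *Thy1*, the gene behind the sort and so no finding, made up 51.9 to 88.5 TPM of that sum in WT and 94.4 to 129 TPM in cKO. *Tubb3*, which encodes the neuronal tubulin, was at 5.32, 4.71 and 3.45 TPM in the WT libraries and 11.5, 12.0 and 7.05 TPM in the cKO libraries, and *Stmn2*, another neuronal gene, at 4.26, 1.44 and 3.93 TPM in the WT libraries and 8.51, 5.54 and 6.62 TPM in the cKO libraries, both without overlap. Of all genes tested, 18.7% had all cKO libraries above all WT libraries. The summed TPM of 8 rod markers was 12300 to 17163 in WT and 25059 to 47812 in cKO. The cells are therefore called sorted retinal cells here. In such bulk samples fewer cells of a type and less RNA per cell cannot be told apart.

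**Figure D1:**
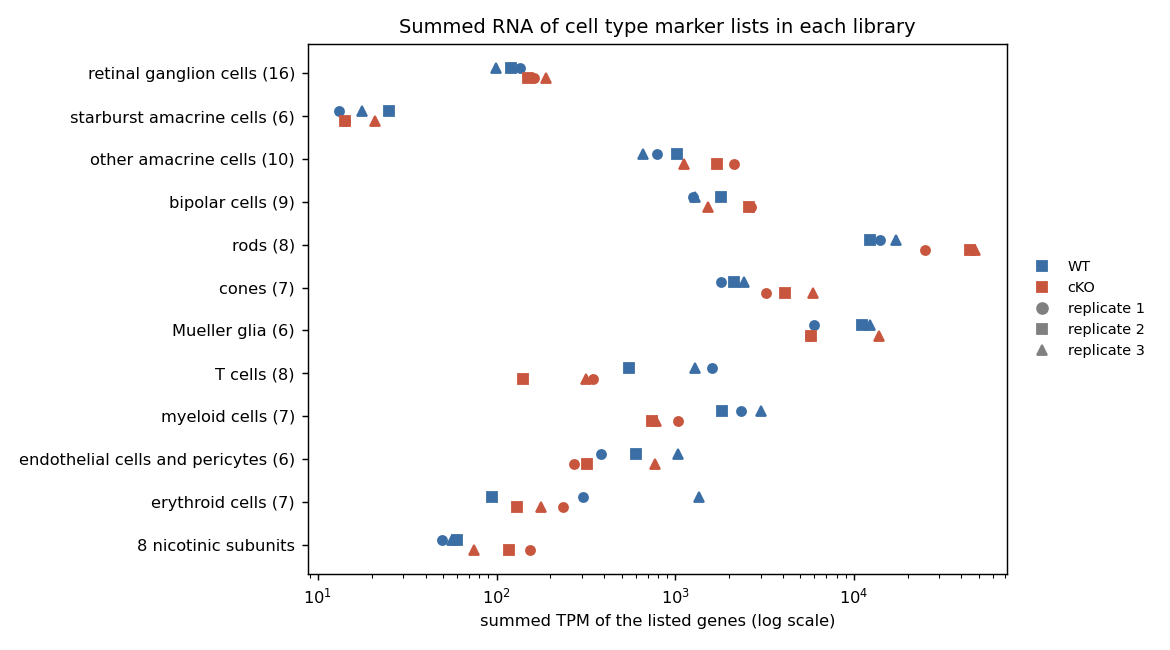
Summed TPM of the marker genes of each cell type (log axis, number of genes in brackets) and of the 8 nicotinic subunits, with 1 point per library, blue for WT and red for cKO. RGC and starburst markers were low in every library. Other amacrine, rod and cone sums were higher in all 3 cKO libraries, and T cell and myeloid sums were lower in all 3. The RGC sum was higher too, but its largest part was *Thy1*, the gene behind the sort.

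The promoters show how unlike these genes are at their start sites. RefSeq promoters (GRCm38.p6) were matched for 8 of the 10 genes, and *Chrna6* and *Chrnb3* had no entry. The 250 bases before the listed start held 74.4% G and C at *Chrna4*, 73.6% at *Ache*, 67.2% at *Chrna7*, 59.6% at *Chrnb2* and 45.6% at *Slc5a7*, against a median of 52.4% over 32851 promoters. The GC box GGGCGG, searched on both strands, was present in 5 of 9 promoters of these genes and in 32.7% of all promoters. *Ache*, *Chrna4* and *Chrnb2* are shown because their RNA separated the groups, with each GC box on either strand in capitals, and there are 4 boxes at *Ache*, some of them overlapping, 3 at *Chrna4* and none at *Chrnb2*. *Chrna7* is shown because an ATAC-seq region crosses its start, and there the 133 bases inside that region are in capitals.
Ache promoter, chr5:137288004-137288253, plus strand: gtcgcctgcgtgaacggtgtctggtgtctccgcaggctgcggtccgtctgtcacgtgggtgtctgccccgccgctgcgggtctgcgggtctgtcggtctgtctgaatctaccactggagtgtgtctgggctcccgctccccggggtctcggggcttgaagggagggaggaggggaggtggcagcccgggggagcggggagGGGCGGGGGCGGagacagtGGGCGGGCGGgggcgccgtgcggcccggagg
Chrna4 promoter, chr2:181039178-181039427, minus strand: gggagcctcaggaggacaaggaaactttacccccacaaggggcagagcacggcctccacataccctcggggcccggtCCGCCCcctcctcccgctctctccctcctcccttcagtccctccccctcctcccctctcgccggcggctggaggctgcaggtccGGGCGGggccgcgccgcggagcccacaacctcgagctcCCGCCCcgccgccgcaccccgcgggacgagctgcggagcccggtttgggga
Chrnb2 promoter, chr3:89764633-89764882, minus strand: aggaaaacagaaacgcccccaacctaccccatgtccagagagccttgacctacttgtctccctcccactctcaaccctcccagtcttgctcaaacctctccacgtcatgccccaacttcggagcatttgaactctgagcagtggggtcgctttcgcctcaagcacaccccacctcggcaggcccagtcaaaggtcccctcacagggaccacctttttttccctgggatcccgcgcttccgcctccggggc
Chrna7 promoter, chr7:63212527-63212776, minus strand: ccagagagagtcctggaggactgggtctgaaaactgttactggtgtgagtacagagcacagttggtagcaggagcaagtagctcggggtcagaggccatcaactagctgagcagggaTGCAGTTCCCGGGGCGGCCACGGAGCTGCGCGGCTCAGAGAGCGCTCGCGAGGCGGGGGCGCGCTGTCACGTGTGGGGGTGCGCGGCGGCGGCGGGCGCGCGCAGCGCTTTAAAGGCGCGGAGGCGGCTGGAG

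Other motifs were searched in the same windows on both strands. The E-box CANNTG was found in 8 of 9 promoters of these genes and in 66.2% of all promoters, and none of its matches here overlapped a GC box. The AP-1 motif TGANTCA was found in 0 of 9 and in 6.75% of all promoters, and the homeodomain core TAATTA in 0 of 9 and in 4.84%. The promoter of *Chrna4* given in RefSeq starts inside the gene, whose extent reaches upstream of it.

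*Chrna6*, an alpha subunit known from RGCs and dopamine neurons, had the most RNA of the 8 subunits. *Chrna6* was at 22.3, 25.9 and 24.8 TPM in WT replicates 1, 2 and 3 and 67.3, 55.7 and 34.7 TPM in cKO replicates 1, 2 and 3. Every cKO library lay above every WT library, with cKO replicate 3 closest to them. The means were 24.3 ± 1.88 TPM in WT and 52.6 ± 16.5 TPM in cKO (SD, n = 3 each), and the log2 fold change of TPM + 1 was 1.03 (SE 0.29, adjusted p = 0.151, limma), which did not pass the threshold of 0.05.

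*Chrna4*, which pairs with *Chrnb2* in the main high-affinity nicotine receptor of the brain, was at 2.51, 2.91 and 3.23 TPM in WT replicates 1, 2 and 3 and 7.44, 6.30 and 4.94 TPM in cKO replicates 1, 2 and 3. The groups did not overlap here either. Its log2 fold change was 0.89 (SE 0.28, adjusted p = 0.176, limma), and its means were 2.88 ± 0.36 TPM in WT and 6.23 ± 1.25 TPM in cKO (SD, n = 3 each).

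*Chrna7* was at 2.40, 2.92 and 2.07 TPM in WT replicates 1, 2 and 3 and 7.32, 6.19 and 1.99 TPM in cKO replicates 1, 2 and 3. cKO replicates 1 and 2 were above all WT libraries, and cKO replicate 3 was below all of them. The 95% interval of its log2 fold change of 0.71 ran from -0.31 to 1.73 (adjusted p = 0.423, limma). The log2 fold change was 1.17 without cKO replicate 3 and 0.43 without cKO replicate 1 (adjusted p = 0.148 and 0.747, limma).

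*Chrna3*, the alpha subunit of the autonomic ganglia, was at 1.13, 2.44 and 2.04 TPM in WT replicates 1, 2 and 3 and 2.15, 3.03 and 2.31 TPM in cKO replicates 1, 2 and 3. The groups overlapped, and the interval of its log2 fold change of 0.30 ran from -0.41 to 1.02 (adjusted p = 0.625, limma). Leaving out 1 library moved it between 0.10, without WT replicate 1, and 0.45, without WT replicate 2. *Chrna5*, an accessory subunit that joins others without forming their usual binding site, was listed at 0 in WT replicates 2 and 3, at 0.0880 TPM in WT replicate 1, and at 0.05, 0.0595 and 0.440 TPM in the cKO libraries. The extents of *Chrna3* and *Chrna5* overlap by 1304 bp on opposite strands, and reads from the overlap cannot be told apart without strand, whose use is not given in the sources used here.

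**Figure D2:**
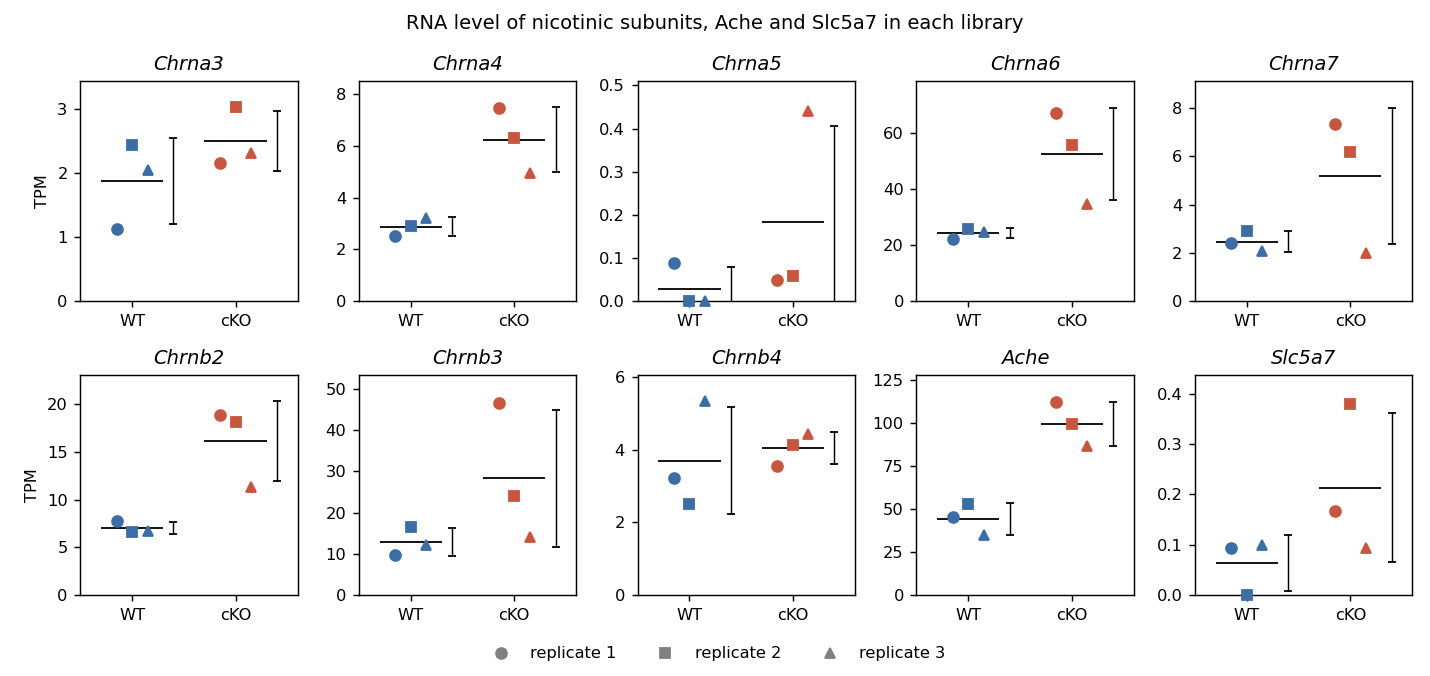
TPM of each of the 10 genes in each RNA-seq library, with the marker shape for the replicate, the horizontal line for the group mean and the bar beside it for 1 SD (cut at 0 for *Chrna5*); each panel has its own axis. *Chrna4*, *Chrna6*, *Chrnb2* and *Ache* have all 3 cKO libraries above all 3 WT libraries, and *Chrna5* and *Slc5a7* stay under 1 TPM.

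Among the beta subunits, *Chrnb3* had the most RNA. It is an accessory subunit found with *Chrna6* and lies beside it on chromosome 8, with 3481 bp between the genes. *Chrnb3* was at 9.79, 16.5 and 12.3 TPM in WT replicates 1, 2 and 3 and 46.7, 24.1 and 14.2 TPM in cKO replicates 1, 2 and 3. The value of cKO replicate 3 lay inside the WT range, and that of cKO replicate 1 was far above the rest. The log2 fold change was 0.96 with an interval from -0.09 to 2.0 (adjusted p = 0.303, limma), and without cKO replicate 1 it was 0.53 (adjusted p = 0.630, limma).

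*Chrnb2*, the common partner of *Chrna4* and *Chrna6*, was at 7.78, 6.58 and 6.72 TPM in WT replicates 1, 2 and 3 and 18.9, 18.1 and 11.4 TPM in cKO replicates 1, 2 and 3. The WT libraries were close together and all 3 cKO libraries lay above them. The means were 7.03 ± 0.656 TPM in WT and 16.1 ± 4.14 TPM in cKO (SD, n = 3 each), a log2 fold change of 1.06 (SE 0.29, adjusted p = 0.147, limma).

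*Chrnb4*, the partner of *Chrna3* in the ganglionic receptor, was at 3.23, 2.51 and 5.35 TPM in WT replicates 1, 2 and 3 and 3.56, 4.12 and 4.44 TPM in cKO replicates 1, 2 and 3. All 3 cKO libraries lay inside the WT range. Its log2 fold change was 0.14, with an interval from -0.61 to 0.89 (adjusted p = 0.839, limma), and without WT replicate 2 the difference was -0.0448, so its direction rested on that library. Without WT replicate 3 it was 0.38.

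*Ache* had the highest RNA level of the 10 genes and the lowest p-value. *Ache* was at 45.6, 52.8 and 34.6 TPM in WT replicates 1, 2 and 3 and 112, 99.7 and 86.7 TPM in cKO replicates 1, 2 and 3. All 3 cKO libraries lay well above the WT libraries, and the lowest cKO value was over the highest WT value by more than the whole WT range. The means were 44.3 ± 9.13 TPM in WT and 99.6 ± 12.9 TPM in cKO (SD, n = 3 each), a 2.25-fold ratio, and the log2 fold change was 1.16 (SE 0.24, unadjusted p = 0.00168, adjusted p = 0.124, limma). *Slc5a7* was listed at 0 in WT replicate 2, and the other 5 libraries lay between 0.0928 and 0.379 TPM, too low to be tested.

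Of the 8 genes tested with limma, 0 passed an adjusted p of 0.05, with adjusted p from 0.124 to 0.839. The threshold was passed by 1 of 17555 genes in all, or 0.0057% (0.0114% with the replicate number as a block, where again 0 of the 8 passed). With an unadjusted p under 0.05, 4 genes of the 8 stood higher in cKO (*Ache*, *Chrnb2*, *Chrna6* and *Chrna4*) and 0 were lower, against 11.9% of all genes tested higher and 6.45% lower. The same 4 genes had groups that did not overlap, with cKO above WT, which 18.7% of all genes showed (7.18% had cKO below WT). An exact two-sided permutation test of each of these genes gave p = 0.1, the smallest that 3 against 3 libraries allow, and the other 4 genes gave p from 0.2 to 0.6.

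The log2 fold change was above 0 in 8 of 8 genes tested, as it was in 61.1% of all genes, and its median was 0.92 against 0.16 over all genes. The table as a whole leaned toward cKO: among genes whose unadjusted p was under 0.05, 64.9% were higher in cKO, and this share was 44.2% once library size was adjusted by medians of ratios. On that scaling the median of all genes was 0.01, the median of the 8 genes was 0.77, and the 4 genes were again higher at an unadjusted p under 0.05 (7.57% of all genes were higher and 9.55% lower). Their groups were apart on this scaling too, as in 12.5% of all genes, and 8 of 8 log2 fold changes were above 0, against 50.8% of all genes. *Chrnb4* was then at 0.01, and the other 7 genes lay between 0.20 and 0.99.

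The cKO libraries did not have the same levels. *Ache*, *Chrna4*, *Chrna6*, *Chrna7*, *Chrnb2* and *Chrnb3* were each highest in cKO replicate 1 and lowest in cKO replicate 3. The summed TPM of 10 markers of other amacrine cells was 2136, 1722 and 1115 in cKO replicates 1, 2 and 3, and 785, 1023 and 660 in the WT libraries. The summed TPM of 9 bipolar markers was 2639, 2571 and 1533 in the same cKO libraries and 1253, 1803 and 1295 in WT. Rod and cone sums had the opposite order in these cKO libraries. The rod sum was 25059, 44895 and 47812, and the cone sum was 3220, 4131 and 5935. Higher in cKO at an unadjusted p under 0.05 were 3 of 12 RGC, 3 of 10 amacrine and 1 of 9 bipolar markers tested. So were 8 of 8 rod and 6 of 7 cone markers. Lower were 7 of 8 T cell and 4 of 7 myeloid markers. Of all genes tested, 11.9% were higher and 6.45% lower. The 3 RGC markers were *Thy1*, the gene behind the sort, and the general neuronal *Tubb3* and *Stmn2*. Of the 12 RGC markers, 7 had a log2 fold change above 0 and 5 below it, such as *Rbpms* at -0.41 and *Sncg* at -0.83. With library size adjusted by medians of ratios, 1 of 12 RGC markers, *Tubb3*, was higher at an unadjusted p under 0.05. So were 2 of 10 amacrine, 1 of 9 bipolar, 8 of 8 rod and 6 of 7 cone markers, against 7.57% of all genes. The T cell sum was 550 to 1598 in WT and 141 to 348 in cKO. The part of these cells in the levels of the nicotinic genes was not tested.

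**Figure D3:**
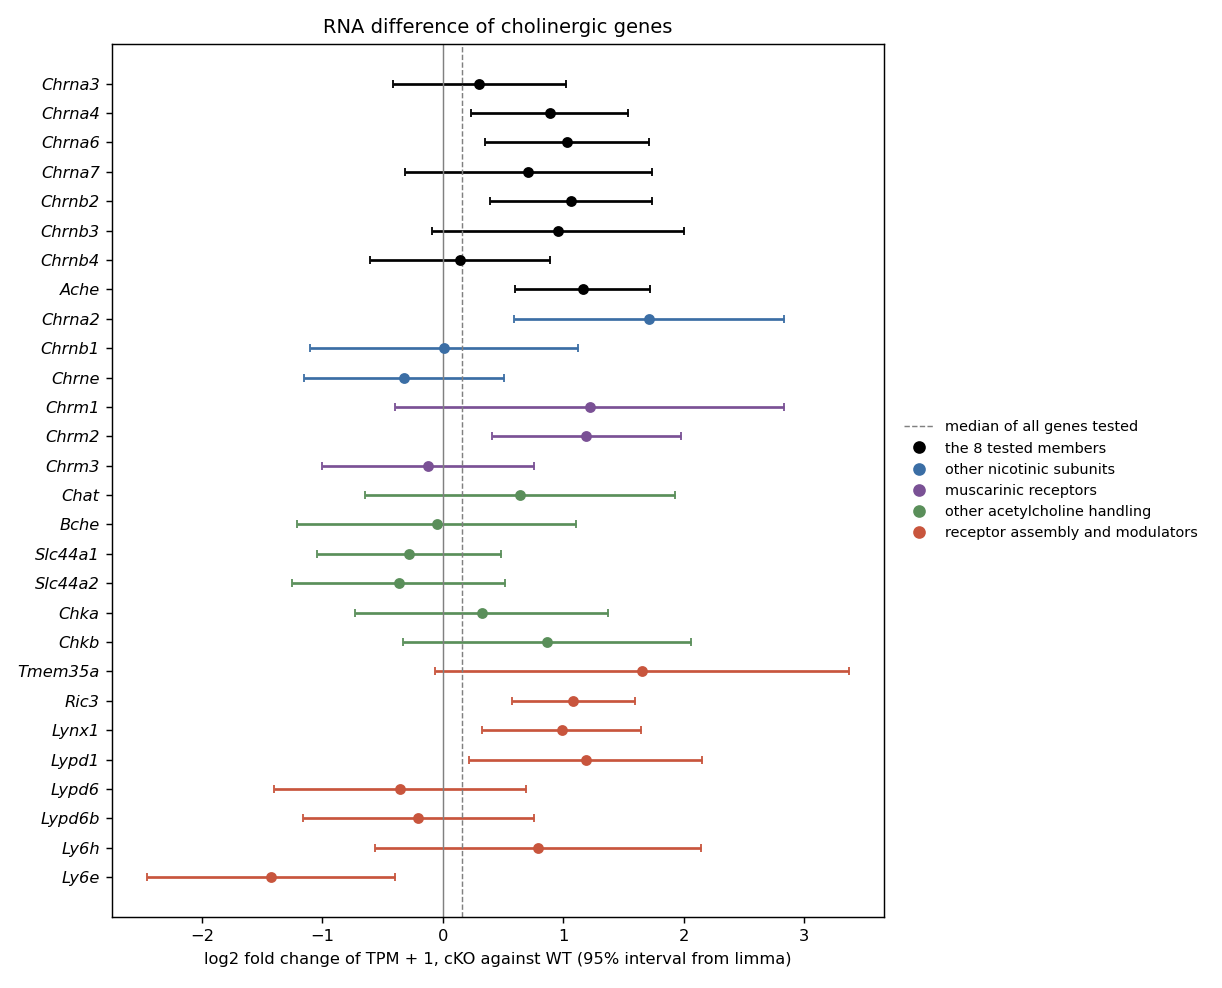
Log2 fold change of TPM + 1, cKO against WT, for the 8 tested genes (black) and the tested genes of 4 cholinergic lists (colors), with bars for the 95% interval from limma and a dashed line at the median of all genes, 0.16. The intervals of *Chrna4*, *Chrna6*, *Chrnb2* and *Ache* lie above 0, and the interval of *Ly6e* lies below it.

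TPM is scaled by transcript length, so levels can be set side by side between genes. In WT the order of the mean TPM was *Ache*, *Chrna6*, *Chrnb3*, *Chrnb2*, *Chrnb4*, *Chrna4*, *Chrna7*, *Chrna3*, *Slc5a7* and *Chrna5*. The WT libraries of *Ache*, *Chrna6*, *Chrnb3* and *Chrnb2* did not overlap between neighbours in this order, whereas neighbours from *Chrnb4* to *Chrna3* overlapped. In cKO *Chrna6*, *Chrnb3* and *Chrnb2* overlapped, *Chrna6* with *Chrnb3* and *Chrnb3* with *Chrnb2*, whereas *Ache* was apart from *Chrna6* and *Chrnb2* from *Chrna4*. Over the 6 libraries the mean level of *Ache* was above that of 84.8% of the genes tested, *Chrna6* above 72.8%, *Chrnb3* above 57.8%, *Chrnb2* above 44.3% and *Chrna3* above 12.9%.

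The share of each subunit in the RNA of the 8 subunits overlapped between the groups. The summed TPM of the 8 subunits was 49.2, 59.8 and 56.5 in WT and 153, 118 and 74.4 in cKO, and the groups did not overlap. *Chrna6* made up 43.4% to 47.4% of this sum in all 6 libraries, at 44.2% ± 0.960 in WT and 46.0% ± 1.83 in cKO (SD, n = 3 each). *Chrnb3* made up 19.1% to 30.4% and *Chrnb2* 11.01% to 15.8%. *Chrna4* and *Chrna7* held 4.85% to 6.65% and 2.67% to 5.26%.

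The share of *Chrnb4* was 6.57%, 4.20% and 9.47% in the WT libraries and 2.32%, 3.50% and 5.97% in the cKO libraries. These groups overlapped. Within a library, the TPM of *Chrna6* was 2.86 to 3.94 times that of *Chrnb2* and 1.44 to 2.44 times that of *Chrnb3*. *Chrna4* was at 0.322 to 0.480 of *Chrnb2*, and *Chrna3* at 0.351 to 0.973 of *Chrnb4*. None of these ratios separated the groups.

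**Figure D4:**
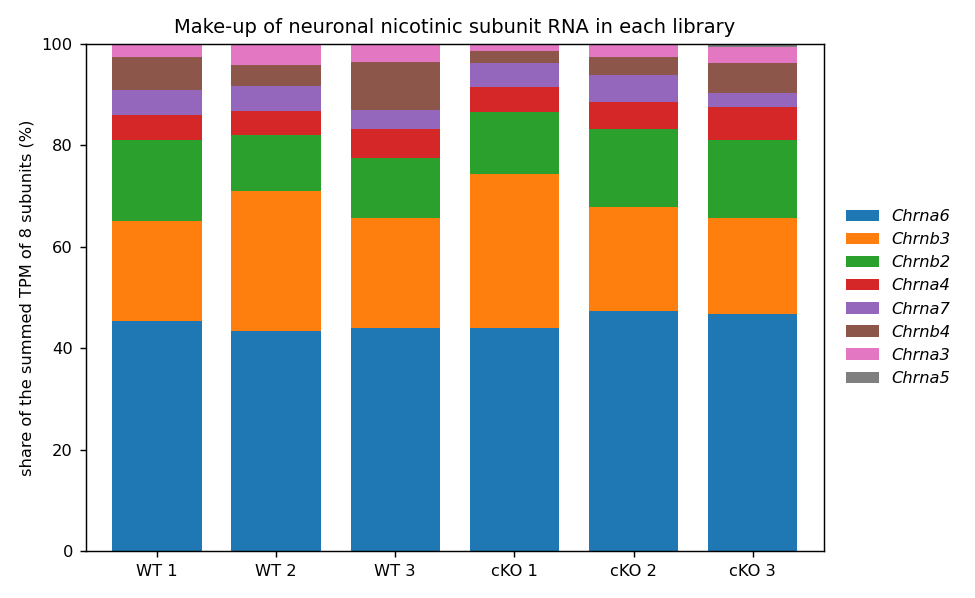
Share of each subunit in the summed TPM of the 8 nicotinic subunits (%), with 1 stacked bar per RNA-seq library. *Chrna6* holds 43.4% to 47.4% of each bar, followed by *Chrnb3* and *Chrnb2*, and *Chrna5* is at most 0.591%.

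Other cholinergic genes were taken from 4 lists. At an unadjusted p under 0.05, 11.9% of all genes tested were higher in cKO, and 18.7% had all cKO libraries above all WT libraries. Of 8 other nicotinic subunits 3 were tested, and *Chrna2*, an alpha subunit of few neurons, was higher at an unadjusted p under 0.05. *Chrna2* was at 2.44, 2.24 and 1.23 TPM in the WT libraries and 15.4, 9.76 and 3.98 TPM in the cKO libraries, without overlap, a log2 fold change of 1.72 (SE 0.48, adjusted p = 0.151, limma). *Chrnb1*, a muscle subunit, had the highest mean of that list over all 6 libraries (in cKO *Chrna2* was higher, at 9.71 against 8.19 TPM) and a log2 fold change of 0.01. Of 5 muscarinic receptors, which signal through G proteins, 3 were tested and *Chrm2* was higher at an unadjusted p under 0.05. *Chrm2* had the highest level of them, at 5.28, 5.70 and 3.15 TPM in the WT libraries and 13.4, 14.3 and 8.50 TPM in the cKO libraries, a log2 fold change of 1.19 (SE 0.33, adjusted p = 0.151, limma).

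Other genes of acetylcholine synthesis, storage and breakdown and of choline supply did not separate the groups. Of 9 listed 6 were tested and 0 passed an unadjusted p of 0.05, with *Slc44a2*, a choline transporter-like gene, at the highest mean. *Chat*, which encodes the enzyme that makes acetylcholine and marks starburst cells, was at 0.700, 1.32 and 0.170 TPM in the WT libraries and 4.54, 1.28 and 0.392 TPM in the cKO libraries. The groups of *Chat* overlapped, with a log2 fold change of 0.64 and an interval from -0.65 to 1.93 (adjusted p = 0.565, limma). *Slc18a3*, which encodes the vesicular acetylcholine transporter, was at most 0.716 TPM, and the summed TPM of 6 starburst markers was 13.2 to 25.0 in WT and 14.2 to 21.0 in cKO.

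Genes that assemble or modulate nicotinic receptors lay on both sides. Of 9 listed 8 were tested, and 3 stood above WT and 1 below it at an unadjusted p under 0.05 (11.9% and 6.45% of all genes). *Ric3*, a chaperone of nicotinic subunits, was at 20.0, 20.6 and 23.1 TPM in the WT libraries and 43.6, 53.5 and 41.7 TPM in the cKO libraries, a log2 fold change of 1.08 (SE 0.22, adjusted p = 0.124, limma). *Lynx1* and *Lypd1*, whose products bind nicotinic receptors at the membrane, had log2 fold changes of 0.99 and 1.19 (adjusted p = 0.153 and 0.201, limma). *Ly6e*, a related membrane protein also known from lymphocytes, was at 962, 329 and 645 TPM in the WT libraries and 321, 175 and 186 TPM in the cKO libraries. All cKO libraries of *Ly6e* lay below the WT libraries, with a log2 fold change of -1.43 (SE 0.44, adjusted p = 0.171, limma). The sum of T cell markers given above was lower in the same libraries, and its part in *Ly6e* was not tested. With the replicate number as a block, 5 genes of this list were higher at an unadjusted p under 0.05, as were 13.4% of all genes (8.52% were lower).

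In the ATAC-seq comparison, both regions at these genes had fewer reads in cKO. Both were outlined by WT peaks alone, so a lower value in cKO was favoured in advance and is no independent support. The values are the authors' log2 means of 2 libraries, with no spread between libraries, so no test was made. The region at *Chrna7*, chr7:63211944-63212659 on GRCm38, is 716 bp long and crosses the start of the gene. Its group value was 4.75 on the log2 scale in WT and 1.86 in cKO, which is 26.9 against 3.63 normalized reads and a difference of -2.89. The region at *Ache*, chr5:137294229-137294899, is 671 bp long and crosses the far (3′) end of the gene. Its group value was 4.95 in WT and 0.27 in cKO, which is 30.9 against 1.21 normalized reads and a difference of -4.68. It also lies within 1000 bp of an end of *Srrt*, *Ufsp1* and *Mir8116*, so it cannot be assigned to *Ache* alone.

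Lower values in cKO were common at gene ends. A difference under -1 was present in 2 of 2 regions of these genes, in 88.9% of the 8002 regions at gene ends and in 59.6% of all regions. The difference at *Chrna7* was reached or passed by 35.3% of the regions at gene ends and that at *Ache* by 2.15%. Both differences were also under -2, as were 67.4% of the regions at gene ends. The median difference was -2.50 over regions at gene ends. Both genes had lower region values in cKO while their mean TPM was higher there, and the groups of *Chrna7* overlapped in RNA.

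Peak lists, called for each library, were read at the 2 regions. *Chrna7* had 1 peak at its start in each WT library, chr7:63211944-63212511 in WT replicate 1 and chr7:63212329-63212659 in WT replicate 2. The far end of *Ache* had 1 peak in each WT library, chr5:137294229-137294699 and chr5:137294319-137294899. Neither had a peak there in either cKO library. Each compared region runs from the first to the last base of its WT peaks, so the peak lists and the region values are not separate evidence. WT replicate 1 also had a peak upstream of *Ache*, chr5:137287156-137287819, which ends 435 bp before the promoter's listed start and was in no other library.

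**Figure D5:**
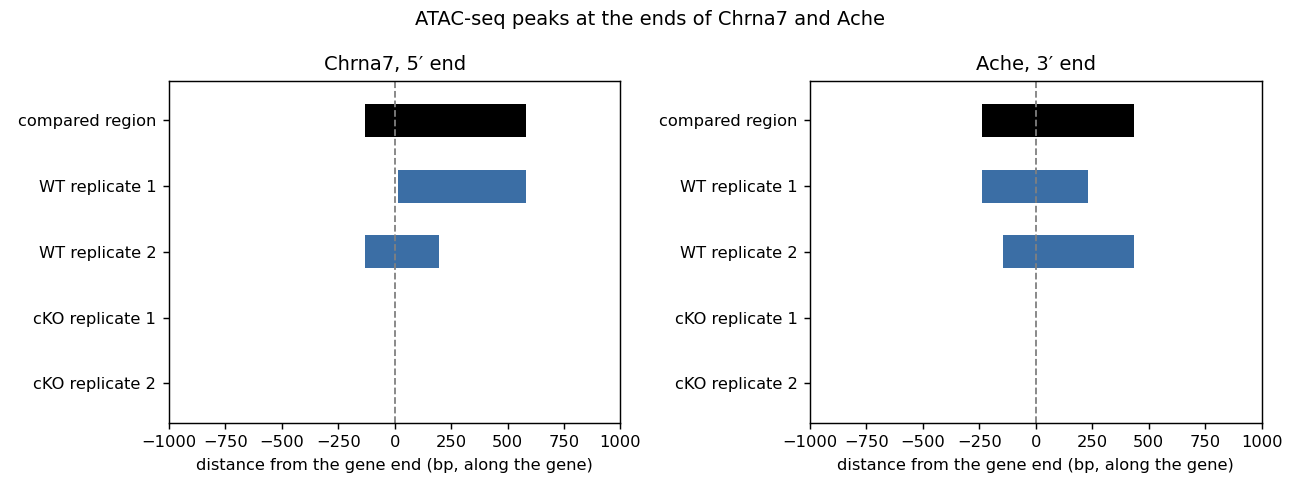
Peaks at the start of *Chrna7* and the far end of *Ache*, as distance in bp from that end (0, dashed) in the direction of transcription, with the compared region in black and 1 row per ATAC-seq library. Each WT library has 1 peak at either end, and the rows of both cKO libraries are empty.

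Over all 10 genes, a peak within 1000 bp of an end was present for 2 genes in WT replicate 1 and for 4 in WT replicate 2, where 30.6% and 25.1% of 49997 genes had one. It was present for 1 gene in cKO replicate 1 and for 0 in cKO replicate 2, against 10.6% and 11.5% of genes. The libraries held 76522, 42265, 55902 and 68317 peaks in the same order, so the cKO libraries had a peak at an end of fewer genes, but the number of peaks in all did not separate the groups. The cKO peak was at *Chrnb3*, chr8:27398479-27398787, inside the gene. The other WT peaks at gene ends, both in WT replicate 2, were upstream of *Chrna5* and at the far end of *Slc5a7*, genes with RNA under 1 TPM.

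The start of *Chrna4* listed in RefSeq lies inside the gene, and there WT replicate 2 had a peak 368 bp and cKO replicate 1 a peak 857 bp into the gene. *Chrna3*, *Chrna6*, *Chrnb2* and *Chrnb4* had no peak within 1000 bp of an end in any library. A region of the comparison was present for 51.5% of the genes tested by RNA-seq with a position, so its absence at 6 of the 8 tested genes leaves their chromatin undescribed by these values.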

How the data were processed

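RNA-seq and ATAC-seq files of sorted retinal cells were used. Per the labels and methods, the authors trimmed RNA-seq reads with Trimmomatic, quantified them with Salmon 1.0.0 on GENCODE (GRCm38) and summed genes with tximport, and they deposited TPM values (nearly the same total per library). TPM keeps no depth, so depth is unknown and no counting interval is given. ATAC-seq reads were aligned with Bowtie2 2.3.5.1 and peaks called per library with MACS2 2.2.5 (submitters' processing notes). The authors deposited group values made with DiffBind, the log2 of mean normalized reads, beside their own differences, p-values and FDR. These, and a table of DESeq2 1.26.0 fold changes and p-values deposited by the authors, were not used.

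Genes with at least 1 TPM in at least 3 of 6 libraries were tested on log2(TPM + 1), which understates changes of low genes, with limma 3.58.1 in R 4.3.3 (empirical Bayes with a trend, Benjamini-Hochberg over all genes, threshold 0.05), checked on simulated data. Exact permutation tests, positions, peaks and promoters were computed in Python 3.11.15 (scipy 1.17.1, pandas 2.3.3, numpy 2.4.6), and figures were drawn in matplotlib 3.10.9. Gene positions came from RefSeq on GRCm38.p6, a patch release that leaves GRCm38 chromosome coordinates as they are; positions are counted from 1. Groups came from the labels. Deviations of same-numbered RNA-seq libraries from their group means correlated across genes at 0.334, 0.101 and 0.425. The values for differently numbered libraries are not given, and the labels state no pairing. The main tests were therefore unpaired, and a replicate block was run as an alternative. Other alternatives were another pseudocount, filters, scaling, no trend, leaving out libraries, other windows, limits and overlaps. The genes and lists were chosen with earlier results of these data known. Named were the 10 genes, *Arid1a*, listed cholinergic genes that passed an unadjusted p of 0.05 or had the highest mean of their list, and, for the 3 highest genes, the 3 genes most like each; *Chat*, *Slc18a3* and single markers were named after their values were seen. Protein sequences and region sequences were not used here.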

Additional observations from a re-analysis of the deposited data

How the results depend on the processing

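No call changed: of the genes tested (8, or 4 at a mean TPM of at least 5 and all 10 with no filter on low values), 0 passed the adjusted threshold under any of the 12 alternatives for RNA-seq, the replicate block included, with adjusted p for *Ache* from 0.0780 (replicate block) to 0.468. With the replicate block 4 genes were higher at an unadjusted p under 0.05, as without it, against 13.4% of all genes higher and 8.52% lower. The block changed no call. That count was 3 without cKO replicate 1 and at a mean TPM of at least 5. It was 6 without cKO replicate 3 and 4 otherwise. Apart from the block and the scaling, the share of all genes was not computed under these alternatives. A change in the count there cannot be read as particular to these genes. The median log2 fold change of the 8 genes, 0.92, ranged from 0.65 without cKO replicate 1 to 1.21 without cKO replicate 3 when 1 library was left out. *Chrnb4* reversed to -0.0448 without WT replicate 2 (adjusted p = 0.95, limma), and its leave-one-out range was -0.0448 to 0.383. In these fits an arm keeps 2 libraries. The cause was not tested. With at least 50% of a peak inside the window, the count of genes with a peak in cKO replicate 1 went from 1 to 0, by construction, and the other libraries kept their counts. Both ATAC-seq regions stayed in the count within 3000 bp, at the gene end itself and with a limit of -2. They also stayed after subtracting the median difference of all regions, -1.57. The median over regions at gene ends was lower, at -2.50, and *Chrna7*, at -2.89, would leave the count if that were subtracted. No paired analysis was possible because only group values are given for ATAC-seq regions, and leaving out 1 of its libraries could give no value. With unknown depth, the counting error of low levels such as those of *Chrna5* and *Slc5a7* cannot be given.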

Other observations

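For the 3 genes with the highest levels, the genes with the most similar pattern were sought among 12671 tested genes with a mean of at least 5 TPM, by Pearson's r of log2(TPM + 1) over the 6 libraries. The points share libraries and groups, so r is a description only. For *Ache* they were *Pwwp2b* (r = 0.998), *Gm12940* (r = 0.997) and *Tmem200a* (r = 0.997), and 172 genes had r over 0.95. *Tmem200a* was at 7.48, 8.77 and 5.46 TPM in WT and 27.5, 21.1 and 18.9 TPM in cKO. For *Chrna6* they were *Tmem169* (r = 0.997), *Gnl3l* (r = 0.996) and *Hs3st5* (r = 0.996), with 234 genes over 0.95. For *Chrnb3* they were *Col6a1* (r = 0.989), a collagen gene, *Stc1* (r = 0.987), which encodes a secreted glycoprotein, and *Diras1* (r = 0.985), with 73 genes over 0.95. *Col6a1* was at 9.84, 14.0 and 12.9 TPM in WT and 50.1, 22.1 and 14.0 TPM in cKO, so it shared the high value of cKO replicate 1.

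Inside the genes, away from their ends as well as at them, ATAC-seq peaks were spread unevenly. *Chrna7*, the longest of the 10 genes at 113835 bp, held 8 and 4 peaks in the WT libraries and 1 and 4 in the cKO libraries. *Chrnb3* held 1 and 0 in WT and 3 and 2 in cKO, *Chrna4* 0 and 1 in WT and 3 and 1 in cKO, and *Chrnb4* 0 and 0 in WT and 1 and 2 in cKO. *Slc5a7* held 2 and 1 in WT and *Ache* 1 and 1, and both held 0 in the cKO libraries. *Chrna6* held 0 and 1 in either group and *Chrnb2* 1 and 0 in WT and 0 in cKO. Over the 10 genes there were 13 and 8 peaks in WT and 8 and 10 in cKO. *Chrna3*, 16446 bp long, held none. These are counts of 0 to 8 peaks with no test. The share of all genes with such counts was not computed, so no difference here can be read as particular to these genes.

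Of 31 other cholinergic genes, 6 had a region at an end in the ATAC-seq comparison, as did 20.6% of 49997 genes. The median difference of these 6 regions was -2.47, against -2.50 over all regions at gene ends. The differences were -3.49 at *Slc44a1*, -2.77 at *Chkb*, -2.65 at *Chka*, -2.30 at *Slc44a2*, -0.56 at *Ly6e* and -0.45 at *Lynx1*. The first 4, choline transporter-like genes and choline kinases, were under -1, as were 88.9% of all regions at gene ends, and *Ly6e* and *Lynx1* were not.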
